A study of Mus musculus with 8 samples.

Results

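The transcripts described here are those of the mouse mitochondrial genome, the small circular DNA kept inside mitochondria. Members were the rows of the gene count table whose Entrez identifier belongs to a gene of that chromosome. The annotation lists 37 such genes, namely 2 ribosomal RNAs (rRNAs), 13 messenger RNAs (mRNAs) and 22 transfer RNAs (tRNAs). Both rRNAs and all 13 mRNAs had a row, so 15 of the 27179 genes in the table are members. The 22 tRNAs are not analysed here. Their genes span 59 to 75 bases, less than the 100-base reads. Poly(A)-selected RNA was sequenced from 8 neurosphere cultures, floating clusters of neural stem and progenitor cells (NSPCs), each grown in proliferation medium from 1 C57BL/6 fetus at E14.5. In 4 cultures Kat7, which encodes a MYST-family histone acetyltransferase, was deleted (Kat7lox/lox NesCreT/+). The other 4 were intact (Kat7+/+ NesCreT/+). Both genotypes carry the Cre recombinase, which the Nestin promoter drives in neural precursors, and floxed Kat7 without Cre was not a group here. Each genotype came from 3 litters and no litter held both, so the genotypes cannot be compared within a litter. Litter 1253 gave intact replicates 1 and 2, and litter 1429 gave deleted replicates 3 and 4.

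Mitochondrial DNA is transcribed from both strands into long precursors by the polymerase Polrmt with the factors Tfam and Tfb2m. In most places the rRNAs and mRNAs are separated by tRNAs, and cutting out the tRNAs releases them. Most mitochondrial mRNAs then receive short poly(A) tails, and some need those tails to complete the stop codon. The mRNAs encode core subunits of respiratory complexes I, III and IV and of the ATP synthase, while all other proteins of the organelle, including those that transcribe and translate its genome, come from nuclear genes. The rRNAs carry only short A-tails, so the part of them that poly(A) selection retains can vary between preparations.

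Before any level is read, the sequences show which of these genes a short read can identify. Copies of mitochondrial DNA lie in the nuclear genome, and a 100-base read from a stretch that a copy repeats exactly fits both places. In GENCODE M21 (GRCm38), 7 annotated pseudogenes in a row on the minus strand at chr1:24611535-24616197, a span of 4663 bases, repeat mt-Nd4, mt-Nd4l, mt-Nd3, mt-Co3, mt-Atp6, mt-Co2 and mt-Co1. Along their aligned length, 5 of these copies had 0 differences from the gene. The start of mt-Co2, which encodes a cytochrome c oxidase subunit, is shown with its copy Gm28661 because the pair cannot be told apart by any read inside it (gene positions 10 to 70, chrM:7022-7082 plus strand and chr1:24615496-24615556 minus strand).
mt-Co2: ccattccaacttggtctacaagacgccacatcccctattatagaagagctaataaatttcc
Gm28661: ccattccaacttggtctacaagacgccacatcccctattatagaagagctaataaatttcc
The edge of the mt-Co1 copy Gm29216 is shown because it is where a read can tell a copy from the gene (gene positions 1054 to 1090, chrM:6381-6417 plus strand and chr1:24616161-24616197 minus strand), with the differing bases in capitals.
mt-Co1: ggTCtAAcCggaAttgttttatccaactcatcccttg
Gm29216: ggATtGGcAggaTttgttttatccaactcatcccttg
Counted from 1 at the first base of mt-Co1, the gene's base first, the differences are T1056A, C1057T, A1059G, A1060G, C1062A and A1066T. The remaining bases of the 492 aligned to Gm29216 were identical. Another copy of mt-Co1, Gm13340 on chromosome 2, aligned over all 1545 bases with 37 differences. On the same chromosome, Gm13339 aligned over 510 bases of mt-Nd2 with 17 differences. Some windows of mt-Co2 also occur in Gm13341.

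The share of 100-base windows that occur exactly in an annotated nuclear transcript was 99.9% for mt-Co3, 99.5% for mt-Co2, 99.5% for mt-Atp6, 98.5% for mt-Nd4l and 97.6% for mt-Nd3. It was 60.8% for mt-Nd4, 30.8% for mt-Co1 and 3.19% for mt-Nd2. It was 0 for the other 7 members, mt-Rnr1, mt-Rnr2, mt-Nd1, mt-Atp8, mt-Nd5, mt-Nd6 and mt-Cytb. How reads with several matches were counted is not given in the sources used here, so levels of the 8 genes with shared windows are uncertain. With up to 2 mismatches allowed the share was 71.1% for mt-Co1, 9.62% for mt-Nd5 and 1.9% for mt-Nd6, and 113 of 939 windows of mt-Nd2 were shared. The tolerance of the aligner is not given either. The gap between the copies of mt-Co2 and mt-Atp6 is 233 bases long, against 230 bases between the genes, where mt-Atp8 lies. The gap is not part of the annotated copies and was not searched, so the 0 of mt-Atp8 covers annotated copies only. Only annotated transcripts were searched for copies, not the whole genome, and the counts of the copies are not analysed here.

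Neighbouring mitochondrial genes also overlap. The last bases of mt-Atp8 and the first of mt-Atp6, which encode subunits of the ATP synthase, are the same 43 bases on the same strand, in capitals here with 25 bases on each side (chrM:7902-7994, plus strand).
mt-Atp8/mt-Atp6: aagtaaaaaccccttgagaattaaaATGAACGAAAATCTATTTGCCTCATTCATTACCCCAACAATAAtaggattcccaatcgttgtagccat
The complex I genes mt-Nd4l and mt-Nd4 share 7 bases in the same way (chrM:10142-10198, plus strand, shared bases in capitals).
mt-Nd4l/mt-Nd4: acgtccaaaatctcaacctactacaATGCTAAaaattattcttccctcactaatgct
Each of these pairs is carried on 1 bicistronic mRNA, so reads over the capitals belong to both genes. On opposite strands, mt-Nd5 and mt-Nd6 share 14 bases. mt-Nd6 is the only mRNA gene on the light strand, and the strand setting of the counting is not given in the sources used here.

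Kat7 checks the labels. It stood at 85.7, 77.0, 80.9 and 92.0 CPM (counts scaled by the TMM-adjusted library size) with Kat7 intact, and 26.3, 0.367, 13.9 and 0.0869 CPM with Kat7 deleted. Here and below, 4 values of a genotype are those of replicates 1 to 4 in order. All deleted libraries lay below all intact ones, and deleted replicates 1 and 3 held more of the remaining Kat7 reads than replicates 2 and 4. By an exact permutation test (two-sided, log2 CPM) p was 0.0286, and none of the 70 arrangements can give a smaller one. The log2 fold change, deleted minus intact, was -3.02 ± 1.10 (SE) with an adjusted p of 0.128 in edgeR's quasi-likelihood test. Summed CPM of 11 NSPC markers was 5092 to 6182 in intact and 3700 to 5770 in deleted libraries. By edgeR 0 of the 11 were called, beside 7.90% of all genes tested. Library totals ran from 10687817 to 22444359 counts.

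Mitochondrial rRNA took 20.9%, 18.8%, 18.3% and 22.7% of all counts in replicates 1 to 4. In deleted replicates 1 to 4 it took 28.8%, 18.3%, 16.1% and 32.3%. Deleted replicates 1 and 4 were thus above every intact library, replicate 3 was below every one, and replicate 2 lay within the intact range. The means were 20.2% ± 2.02 and 23.9% ± 7.88 (SD, n = 4), a difference of 3.72 percentage points, which is less than the SD of the deleted libraries. The genotypes overlapped. The 95% Wilson intervals reached at most 0.0253 points either side of a library's share, and they cover counting error only. Leaving out deleted replicate 4 brought the difference to 0.909 points, and leaving out deleted replicate 3 brought it to 6.31 points.

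Mitochondrial mRNA was a far smaller part, at 0.850%, 0.512%, 0.642% and 0.812% of counts in intact replicates 1 to 4. Deleted replicates 1 to 4 had 1.16%, 0.605%, 0.979% and 2.04%. Here 3 of the 4 deleted libraries, replicates 1, 3 and 4, exceeded every intact one, and replicate 2 did not. The means were 0.704% ± 0.157 and 1.20% ± 0.610 (SD, n = 4). The difference of 0.493 points again was less than the SD of the deleted libraries, and it was 0.211 points without deleted replicate 4. As a share of the counts outside mitochondrial rRNA, the means were 0.885% and 1.64%. No test was made of these sums.

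The ratio of rRNA to mRNA counts separates the deleted libraries in another way. It was 24.6, 36.7, 28.5 and 27.9 in intact replicates 1 to 4 and 24.7, 30.4, 16.5 and 15.8 in deleted replicates 1 to 4. Deleted replicates 1 and 2, from separate litters, lay within the intact range. The littermates 3 and 4 were both well below it, although replicate 3 had the lowest and replicate 4 the highest rRNA share of all 8 libraries. The intact littermates 1 and 2 were the lowest and the highest of their genotype. The means were 29.4 ± 5.12 and 21.9 ± 6.97 (SD, n = 4). In these bulk cultures, more cells with many mitochondrial transcripts and more of these transcripts per cell cannot be told apart.

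**Figure D1:**
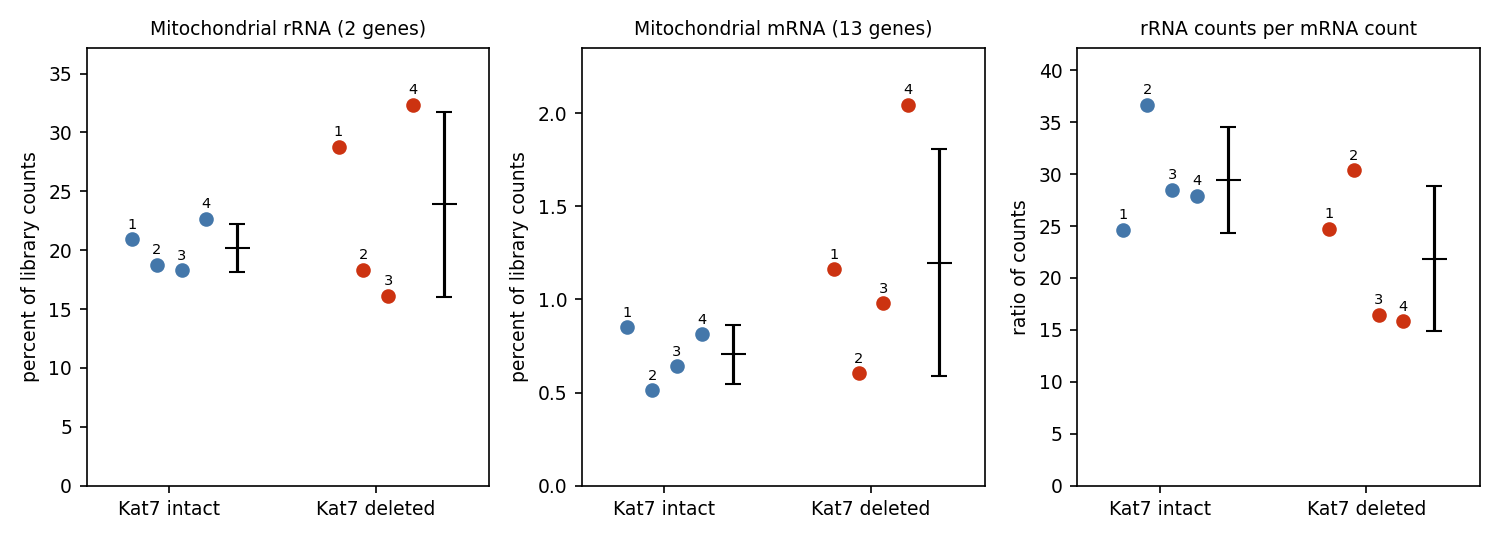
Share of library counts from the 2 mitochondrial rRNAs (left, percent) and the 13 mitochondrial mRNAs (middle, percent), and rRNA counts per mRNA count (right). Each point is 1 library with its replicate number, and the black bars give the mean and SD of 4 libraries. Deleted replicates 1 and 4 stand highest in rRNA share (28.8% and 32.3%), while the littermates 3 and 4 stand lowest in the ratio (16.5 and 15.8).

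Within intact libraries the members covered a wide range of levels. Scaled to length as CPM per kilobase (CPM over gene length), mt-Rnr2, the 16S rRNA of the large mitoribosomal subunit, stood at 116423 ± 14147 (SD, n = 4), 13.9 times mt-Rnr1, the 12S rRNA of the small subunit, at 8366 ± 1325. Next came mt-Co1, the catalytic subunit of cytochrome c oxidase, at 3001 ± 715 CPM per kilobase, mt-Nd1 of complex I at 1081 ± 268 and mt-Cytb, the mitochondrially encoded subunit of complex III, at 452.5 ± 139. Ranges of intact libraries did not overlap between neighbours in this upper part of the order, down to mt-Nd2.

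Below these the order was less firm. The level per kilobase was 128 ± 33.1 for mt-Nd2 and 100.5 ± 9.85 for mt-Co3, whose ranges overlapped, and mt-Co3 lay apart from the next gene. It was 75.5 ± 6.81 for mt-Nd3, 73.0 ± 12.9 for mt-Nd5, 64.8 ± 14.8 for mt-Co2, 53.8 ± 9.09 for mt-Nd6, 45.3 ± 11.4 for mt-Atp6 and 33.2 ± 7.85 for mt-Nd4. Each gene from mt-Nd3 to mt-Nd4 overlapped with its neighbour. At the bottom, apart from mt-Nd4, were mt-Atp8 at 2.01 ± 0.964 and mt-Nd4l at 1.38 ± 0.639 CPM per kilobase. mt-Atp8 lay 22.5 times below mt-Atp6 and mt-Nd4l 24.1 times below mt-Nd4, although each pair is carried on 1 bicistronic mRNA. Shared windows in annotated transcripts made up 99.5% of mt-Atp6 and 0 of mt-Atp8, and 60.8% of mt-Nd4 and 98.5% of mt-Nd4l. The parts these very low counts owe to the overlap and to reads with several matches were not tested.

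**Figure D2:**
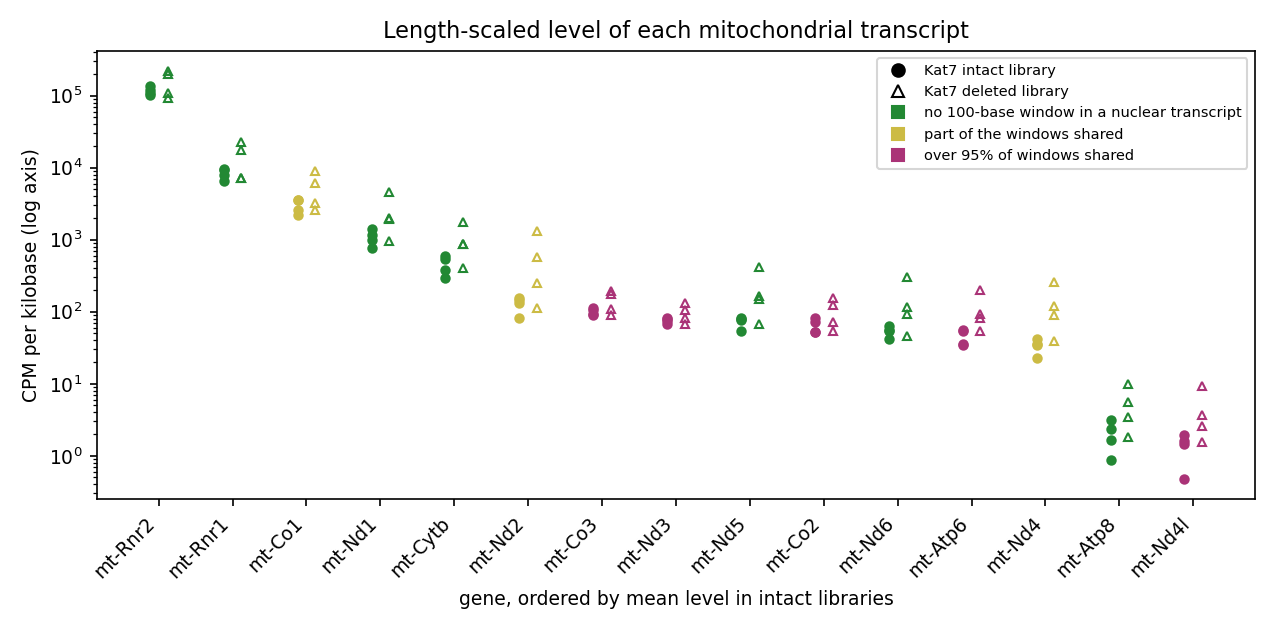
Level of each member per kilobase of gene (CPM per kilobase, log axis) in 4 intact (filled circles) and 4 deleted libraries (open triangles), ordered by the intact mean. Colour gives the share of 100-base windows found in annotated nuclear transcripts. From mt-Nd2 down to mt-Nd4 most neighbours overlap, and mt-Atp8 and mt-Nd4l stand apart, at no more than 3.14 and 1.97 CPM per kilobase in any intact library.

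None of the members was called between genotypes. Of the 15, 14 passed the low-count filter and entered the edgeR test, and 0 of the 14 had an adjusted p under 0.05, while 7.90% of the 13498 genes tested did. At an unadjusted p under 0.05 there were 8, all higher in deleted cultures, where 15.8% of tested genes were. DESeq2 called 7, all higher, with 9.71% of genes called higher by that tool. The same 7 (mt-Nd1, mt-Nd2, mt-Nd4, mt-Nd5, mt-Nd6, mt-Cytb and mt-Atp6) were called by edgeR without deleted replicate 2, where 9.14% of genes were called higher, and 1, mt-Nd4, was called without deleted replicate 1, where 7.24% were. All 14 fitted log2 fold changes lay above 0, as did 55.0% of tested genes, and they ran from 0.36 for mt-Nd3 to 2.13 for mt-Nd2. The median was 0.57 over the 2 rRNAs and 1.19 over the 12 tested mRNAs, against 0.05 over all genes tested. With library totals alone as the scaling, the median over all genes was -0.09, a shift that all genes share. No member had all 4 deleted libraries above all 4 intact ones, while 10.7% of tested genes did.

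Leaving out deleted replicate 4 lowered the fitted value of 12 members by over 1.5 times, mt-Co3 and mt-Nd4 excepted. It went to 0.36 for mt-Rnr1, 0.20 for mt-Rnr2, 0.60 for mt-Nd1, 1.28 for mt-Nd2, 0.42 for mt-Co1, 0.37 for mt-Co2, 0.76 for mt-Atp6, 0.18 for mt-Nd3, 0.90 for mt-Nd4l, 0.81 for mt-Nd5, 0.65 for mt-Nd6 and 0.66 for mt-Cytb. Leaving out both libraries of litter 1429 moved 8 mRNAs that far, to 0.45 for mt-Nd1, 0.52 for mt-Nd2, 0.59 for mt-Atp6, 0.56 for mt-Nd4l, 0.97 for mt-Nd4, 0.58 for mt-Nd5, 0.35 for mt-Nd6 and 0.50 for mt-Cytb. Leaving out deleted replicate 1 moved mt-Rnr2 to 0.27 and mt-Co3 to 0.33.

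What the members shared was a pattern over libraries. Deleted replicate 1 was above every intact library for all 15 members, where 39.4% of tested genes were. Deleted replicate 4 was also above every intact library for all 15, where 37.1% of tested genes were. It was the highest of the 8 libraries for 14 members, mt-Co3 being the exception, with replicate 1 highest there. Deleted replicate 2 exceeded every intact library for 0 members, where 36.8% of tested genes did. Deleted replicate 3 did so for 9 members, all of them mRNAs, where 33.9% of tested genes did. The SD of log2 CPM was larger among deleted than among intact libraries for all 15 members, which 86.6% of tested genes also showed.

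**Figure D3:**
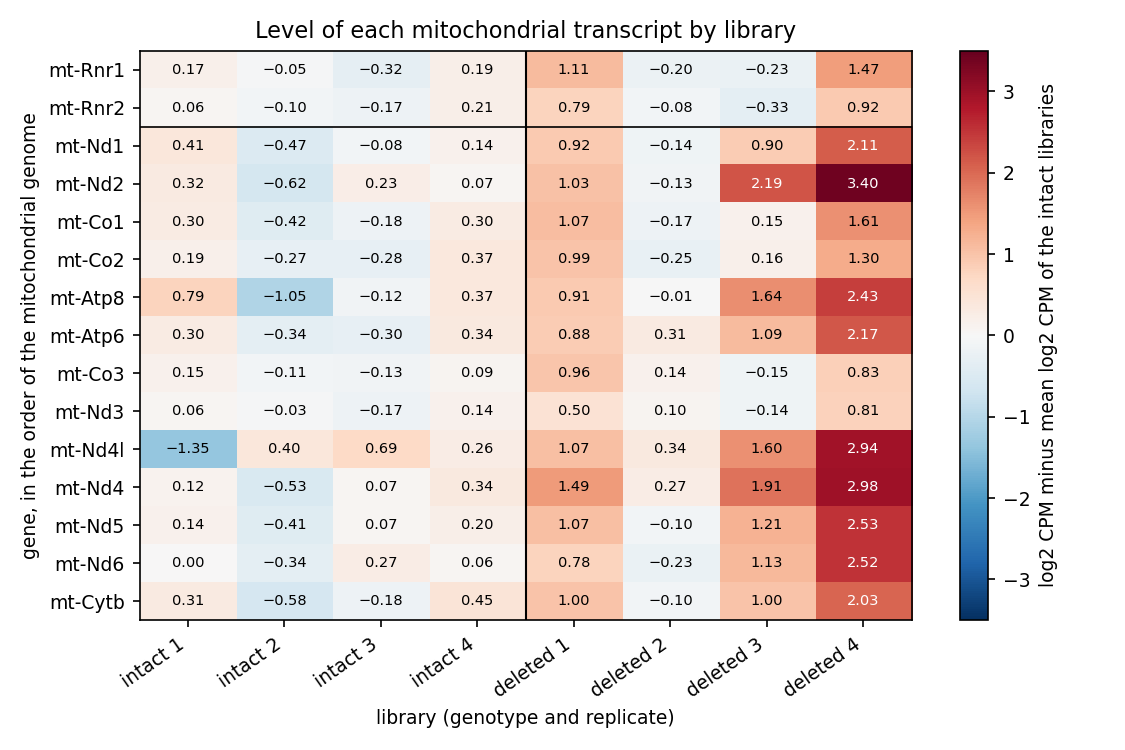
Log2 CPM of each member minus its mean log2 CPM over the 4 intact libraries (colour and printed value), with genes in genome order and libraries in columns. The vertical line parts the genotypes and the horizontal line parts rRNA from mRNA. Deleted replicate 2 looks like the intact libraries, replicates 1 and 4 are above 0 throughout, and replicate 3 is above 0.8 for 9 mRNAs and near 0 for the other members.

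Both rRNAs followed the total. mt-Rnr2 stood at 190924, 170436, 162747 and 212621 CPM with Kat7 intact and 316006, 172939, 145879 and 346507 CPM with Kat7 deleted. Replicates 1 and 4 were high, replicate 3 was the lowest of all 8, and the genotypes overlapped. The log2 fold change was 0.41 ± 0.36 (SE; edgeR adjusted p = 0.497), and an exact permutation test (two-sided, log2 CPM) gave p = 0.371. mt-Rnr1 stood at 8917, 7665, 6337 and 9040.2 CPM with Kat7 intact and 17016, 6884, 6768 and 21863 CPM with Kat7 deleted, again with replicates 1 and 4 alone above the intact range. Its log2 fold change was 0.72 ± 0.41 (edgeR adjusted p = 0.299). Reads of mt-Rnr2 per read of mt-Rnr1 ranged over 21.4 to 25.7 with Kat7 intact and were 18.6, 25.1, 21.6 and 15.8 with Kat7 deleted.

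Among the complex I genes, mt-Nd2 and mt-Nd4 had the largest fitted differences. Complex I takes electrons from NADH into the respiratory chain, and 7 of its core membrane subunits are encoded in mitochondria. mt-Nd2 stood at 161, 83.7, 151 and 136 CPM with Kat7 intact and 263, 117, 589 and 1361 CPM with Kat7 deleted. Replicates 3 and 4 were the highest, replicate 1 was also above the intact range and replicate 2 was inside it. The log2 fold change was 2.13 ± 0.67 (edgeR adjusted p = 0.0882). mt-Nd4 stood at 48.5, 30.9, 47.0 and 56.8 CPM with Kat7 intact and 125, 53.8, 168 and 352 CPM with Kat7 deleted, with the same order of deleted libraries. Its log2 fold change was 1.93 ± 0.50, and the edgeR adjusted p of 0.0525 was the lowest among members and missed the threshold. Part of the mt-Nd4 windows, 60.8%, are shared with Gm28439.

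The other complex I genes fell in 2 kinds. mt-Nd5, with 0 exact shared windows, stood at 145, 98.9, 138 and 151 CPM with Kat7 intact and 275, 122, 304 and 759 CPM with Kat7 deleted, and its log2 fold change was 1.45 ± 0.48 (edgeR adjusted p = 0.101). mt-Nd1 stood at 1339, 732, 954 and 1114 CPM with Kat7 intact and 1917, 917, 1884 and 4370 CPM with Kat7 deleted (log2 fold change 1.13 ± 0.43, edgeR adjusted p = 0.141). mt-Nd6, on the light strand, stood at 27.7, 21.9, 33.3 and 28.9 CPM with Kat7 intact and 47.6, 23.6, 60.5 and 158 CPM with Kat7 deleted (log2 fold change 1.37 ± 0.51, edgeR adjusted p = 0.131). In all 3 genes, replicates 1, 3 and 4 were above the intact range and replicate 2 within it. mt-Nd3 differed from them in deleted replicate 3. It stood at 27.3, 25.6, 23.3 and 28.8 CPM with Kat7 intact and 37.1, 28.1, 23.7 and 45.9 CPM with Kat7 deleted, so replicates 1 and 4 alone were above the intact range (log2 fold change 0.36 ± 0.20, edgeR adjusted p = 0.295).

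mt-Nd4l rested on few reads. Its counts were 2, 8, 12 and 10 in intact and 12, 5, 20 and 32 in deleted replicates 1 to 4, and the exact 95% Poisson interval of the lowest was 0.242 to 7.22 counts and of the highest 21.9 to 45.2. Its log2 fold change was 1.58 ± 0.62 (edgeR adjusted p = 0.149).

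For cytochrome c oxidase, complex IV, which passes electrons to oxygen, the 3 mitochondrial subunits followed the rRNA pattern more closely. mt-Co1 stood at 5568, 3396, 4014 and 5567 CPM with Kat7 intact and 9496, 4036, 5048 and 13821 CPM with Kat7 deleted. Replicates 1 and 4 were above the intact range and replicates 2 and 3 within it. Its log2 fold change was 0.80 ± 0.40 (edgeR adjusted p = 0.237). mt-Co2 stood at 49.5, 35.96, 35.9 and 56.1 CPM with Kat7 intact and 86.1, 36.5, 48.8 and 107 CPM with Kat7 deleted (log2 fold change 0.65 ± 0.34, edgeR adjusted p = 0.255). mt-Co3 stood at 87.3, 72.9, 71.7 and 83.4 CPM with Kat7 intact and 153, 86.5, 70.9 and 139 CPM with Kat7 deleted (log2 fold change 0.51 ± 0.24, edgeR adjusted p = 0.216). Both showed the same 2 high libraries, and both have nearly all their windows shared with a nuclear copy.

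mt-Cytb, of complex III, which passes electrons to cytochrome c, stood at 619, 334, 438 and 679 CPM with Kat7 intact and 999, 464, 997 and 2029 CPM with Kat7 deleted. Replicates 1, 3 and 4 were above the intact range (log2 fold change 1.12 ± 0.42, edgeR adjusted p = 0.139). Of the ATP synthase subunits, mt-Atp6, part of the proton channel, stood at 37.1, 23.8, 24.5 and 38.1 CPM with Kat7 intact and 55.5, 37.2, 64.3 and 135 CPM with Kat7 deleted. The same 3 libraries were high, with replicate 2 just inside the intact range (log2 fold change 1.24 ± 0.38, edgeR adjusted p = 0.0827). mt-Atp8, an accessory membrane subunit, did not pass the low-count filter and was not tested. Its counts were 9, 3, 7 and 11 in intact and 11, 4, 21 and 23 in deleted replicates 1 to 4, with an exact 95% Poisson interval of 0.619 to 8.77 for the lowest and 14.6 to 34.5 for the highest.

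Setting each gene against mt-Rnr2 of the same library removes the library total. Reads of mt-Nd2 per 1000 reads of mt-Rnr2 were 0.845, 0.491, 0.926 and 0.637 in intact replicates 1 to 4. They were 0.832, 0.679, 4.04 and 3.93 in deleted replicates 1 to 4. Deleted replicates 1 and 2 thus lay within the intact range and the littermates 3 and 4 well above it, close to each other, although their mt-Nd2 levels in CPM differed more than 2-fold. Over the 9 members with deleted replicate 3 above every intact library (mt-Nd1, mt-Nd2, mt-Atp8, mt-Atp6, mt-Nd4l, mt-Nd4, mt-Nd5, mt-Nd6 and mt-Cytb), the ratio to the intact mean of this measure ran from 2.11 for mt-Cytb to 5.57 for mt-Nd2 in the littermates 3 and 4. In deleted replicates 1 and 2 it ran from 0.888 to 1.60, and over intact libraries from 0.324 to 1.57, with both of those last bounds from mt-Nd4l. Over the other 5 members (mt-Rnr1, mt-Co1, mt-Co2, mt-Co3 and mt-Nd3) it ran from 0.927 to 1.60 in the littermates 3 and 4 and from 0.798 to 1.17 in intact libraries. By gene, deleted replicate 1 was outside the intact range of this measure for 7 of 14 genes, replicate 2 for 4, and replicates 3 and 4 for 13 each. mt-Nd4 was the 1 member with all deleted libraries above all intact ones on this measure, at 1.60, 1.26, 4.65 and 4.10 times the intact mean with Kat7 deleted and 0.732 to 1.17 with Kat7 intact. The share of all genes outside the intact range was not taken for this measure, so these counts by gene have no background beside them. The 2 groups of members were formed after their values were seen and are a description with no test.

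Along the genome the 2 groups alternate. Relative to mt-Rnr2, deleted replicates 3 and 4 were high at mt-Nd1 and mt-Nd2, near or modestly above the intact mean at mt-Co1 and mt-Co2, high at mt-Atp8 and mt-Atp6, near it at mt-Co3 and mt-Nd3, and high from mt-Nd4l to mt-Cytb. The groups parted only partly by shared windows. Of the 5 genes with over 95% of windows shared, mt-Atp6 and mt-Nd4l were in the high group and mt-Co2, mt-Co3 and mt-Nd3 were not. The mRNAs with 0 exact shared windows, mt-Nd1, mt-Atp8, mt-Nd5, mt-Nd6 and mt-Cytb, were all in the high group. So were mt-Nd2 (3.19% shared) and mt-Nd4 (60.8%), while mt-Co1 (30.8%) and mt-Rnr1 (0) were not. The part of reads with several matches in this grouping was not tested. The composition was seen in 1 litter, and the part of the litter in it was not tested. RNA integrity values are not among the sources used here.

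**Figure D4:**
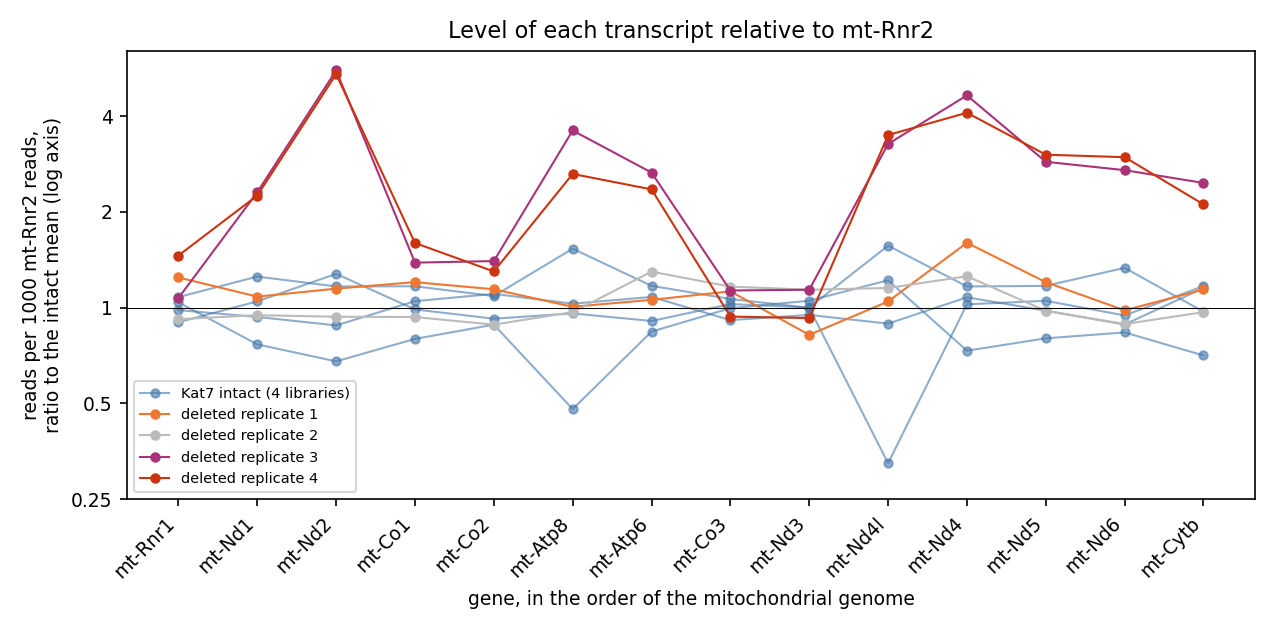
Reads of each member per 1000 reads of mt-Rnr2, as a ratio to the mean of the intact libraries (log axis), with genes in genome order and 1 line per library. The littermates deleted 3 and deleted 4 trace nearly the same line, up to 5.57 and 5.42 at mt-Nd2 and near 1 at mt-Co3 and mt-Nd3. Deleted replicates 1 and 2 run close to the intact libraries, with both inside the intact range for 6 of the 14 genes, and mt-Atp8 and mt-Nd4l scatter most within intact libraries, where they have 2 to 12 reads each.

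Within the mRNA pool, mt-Co1 supplied 68.6%, 69.9%, 67.7% and 70.1% of mitochondrial mRNA counts in intact replicates 1 to 4. It supplied 70.6% and 68.1% in deleted replicates 1 and 2, but 54.5% and 59.4% in the littermates 3 and 4. There mt-Nd2 made up 6.36% and 5.84%, against 1.99% ± 0.388 (SD, n = 4) in intact libraries, and mt-Nd1 made up 20.3% and 18.8%, against 15.4% ± 1.11. The share of the pool lay outside the intact range for all 13 mRNAs in deleted replicates 3 and 4. There mt-Co1, mt-Co2, mt-Co3 and mt-Nd3 were below the range and the other mRNAs above it. These are not 13 separate changes, since a larger share of some genes lowers that of the others. Per mt-Rnr2, mt-Co2 stood at 1.40 and 1.30 times the intact mean in the same libraries. The share was outside the range for 4 mRNAs in replicate 1 (mt-Co1, mt-Atp6, mt-Nd3 and mt-Nd4) and for 2 in replicate 2 (mt-Atp6 and mt-Nd4). This measure has no background over all genes. mt-Nd4 made up 0.598% to 0.793% with Kat7 intact and 0.931%, 0.909%, 1.81% and 1.51% with Kat7 deleted, so all deleted libraries were above all intact ones.

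Nuclear genes that make and handle these transcripts were read from the same fit. From lists compiled from textbook knowledge, 0 of 8 genes of mitochondrial transcription, 0 of 20 of mitochondrial RNA processing and turnover, 0 of 21 of rRNA modification and mitoribosome assembly, 0 of 9 biogenesis regulators and 0 of 16 translation factors were called by edgeR, beside the 7.90% over all genes. At an unadjusted p under 0.05 these lists held 1, 2, 4, 1 and 3 genes, where 26.2% of all genes tested had such a p. Without deleted replicate 2 the same lists had 1, 4, 2, 1 and 0 genes called, with 15.8% of all genes called in either direction, and with DESeq2 they had 0, 2, 2, 0 and 1, with 16.3% of all genes called. Of the 4 called in RNA processing and turnover without that library, 3 were lower in deleted cultures. Of 8 mitophagy genes and 16 nuclear-encoded housekeeping proteins of mitochondria, 0 were called as well, with 2 and 5 at an unadjusted p under 0.05, and 1 in each was called by DESeq2 and without deleted replicate 2. Tfam, which packages and activates mitochondrial DNA, stood at 57.7, 66.1, 66.4 and 69.1 CPM with Kat7 intact and 43.5, 72.7, 50.8 and 48.2 CPM with Kat7 deleted (log2 fold change -0.27 ± 0.17, edgeR adjusted p = 0.338). Without deleted replicate 2 Tfam was called, at -0.45 (edgeR adjusted p = 0.0336). Deleted replicate 2, which had mitochondrial transcripts in the intact range, was the highest in Tfam, and the other 3 deleted libraries were below every intact one. Lrpprc, which stabilizes mitochondrial mRNAs, was 141 ± 10.2 and 143 ± 21.6 CPM (SD, n = 4), and its log2 fold change was 0.03 ± 0.14 (edgeR adjusted p = 0.923).

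Of 18 genes of mitochondrial DNA maintenance 1 rose and 0 fell, beside the 5.10% of all genes called higher and the 2.80% called lower, so the share is near the background. Top1mt, the mitochondrial type I topoisomerase, which relaxes supercoils in mitochondrial DNA, stood at 3.84, 2.99, 4.40 and 2.44 CPM with Kat7 intact and 7.47, 19.8, 6.58 and 9.55 CPM with Kat7 deleted. All deleted libraries were above all intact ones, and the highest was replicate 2, where no member exceeded the intact range. The log2 fold change was 1.66 ± 0.39 (edgeR adjusted p = 0.0385), and 12 of 22 alternatives ended the call, among them each intact library left out, deleted replicate 4 left out (0.059) and litter 1429 left out (0.0534). Of 20 mitochondrial aminoacyl-tRNA synthetase genes 1 rose, again near that share. It was Vars2, which charges the valine tRNA, at 30.9 ± 1.24 and 45.1 ± 3.98 CPM (SD, n = 4), with no overlap (log2 fold change 0.55 ± 0.11, edgeR adjusted p = 0.0222). The Vars2 call was lost in 10 of 22 alternatives, among them each intact library left out (0.0721 to 0.0957).

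For the nuclear partners in the respiratory chain, the shares over all genes were 55.0% fitted above 0 and 7.90% called. For complex I, 35 of 36 nuclear subunits had a fitted log2 fold change above 0 with a median of 0.25, and 1 was called, Ndufa6, an accessory subunit, at 7.95 ± 0.955 and 12.96 ± 1.98 CPM (SD, n = 4; log2 fold change 0.70 ± 0.18, edgeR adjusted p = 0.0464). The Ndufa6 call was lost in 15 of 22 alternatives, among them each library left out except deleted replicate 2. Fitted values above 0 were found for 8 of 8 subunits of complex III, 11 of 11 of complex IV, 13 of 16 of the ATP synthase and 4 of 4 of complex II, which has no mitochondrially encoded subunit. In these last 4 lists 0 genes were called by edgeR. At an unadjusted p under 0.05 they held 0, 2, 2 and 0 genes and complex I held 8, all higher, where 15.8% of all genes tested were. Without deleted replicate 2 the calls were 4 in complex I and 1 each in complexes III and IV and the ATP synthase, all higher. In that fit 9.14% of all genes were called higher. The median log2 distance of complex I subunits from the intact mean was 0.64, -0.05, 0.09 and 0.31 in deleted replicates 1 to 4. The corresponding median of the 13 mitochondrial mRNAs was 0.99, -0.10, 1.09 and 2.17. The nuclear subunits were thus highest in replicate 1 and the mitochondrial mRNAs in replicate 4, and replicate 3 was near the intact mean for the first and well above it for the second. Uqcrc1, a core subunit of complex III, stood at 354, 194, 237 and 262 CPM in deleted replicates 1 to 4, against 170.03 to 228 CPM in intact libraries (log2 fold change 0.44 ± 0.19, edgeR adjusted p = 0.196).

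**Figure D5:**
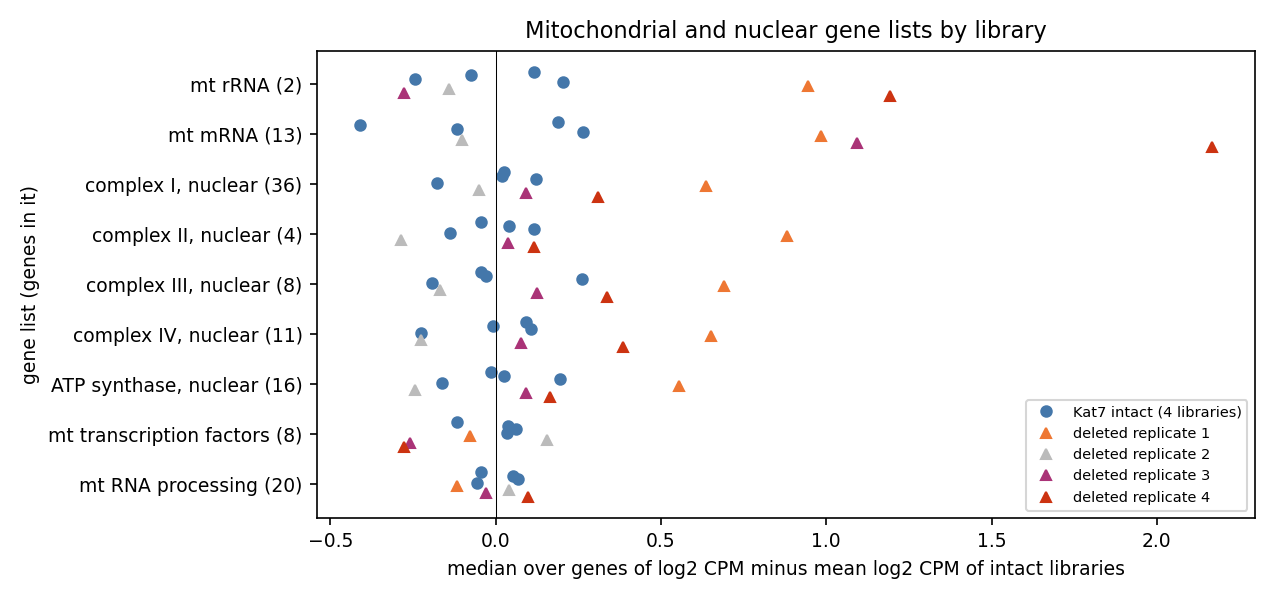
Median over the genes of each list of log2 CPM minus the mean log2 CPM of the intact libraries, with circles for intact and triangles for deleted libraries. The 13 mitochondrial mRNAs reach 2.17 in deleted replicate 4 and 1.09 in replicate 3, while nuclear complex I subunits reach 0.64 in replicate 1 and 0.09 in replicate 3. Genes of mitochondrial transcription and RNA processing stay within about 0.3 of 0.

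Other values differed between the same libraries, and their part in the levels above was not tested. Of 7 tested RNAs that normally lack a poly(A) tail, 0 were called, beside the 7.90% over all genes, with a median log2 fold change of 0.01. The median log2 distance of these 7 from the intact mean was -0.66, 0.14, -0.29 and 0.44 in deleted replicates 1 to 4. Of the 2 libraries high in mitochondrial rRNA, replicate 1 was thus the lowest and replicate 4 the highest of the deleted libraries. Rn7sk, the gene that the naming rule given below takes from this list, had a log2 fold change of 0.06 (edgeR adjusted p = 0.897). Rpph1, the RNA of nuclear RNase P, was named outside that rule. It was highest in deleted replicate 4 (13912 CPM, against 4288 to 9224 CPM in intact libraries) and was inside the intact range in deleted replicates 1 to 3. Malat1, an abundant nuclear RNA chosen after its values were seen, stood at 4737, 3319, 4226 and 11664 CPM with Kat7 intact and 27928, 3276, 6303 and 18618 CPM with Kat7 deleted, so it was highest in the same 2 libraries as mitochondrial rRNA. Of 42 replication-dependent histone genes, 0 were called and 39 had a fitted value below 0, with a median of -0.34. Over all genes tested, 7.90% were called and 55.0% had a fitted value above 0. Their median distance from the intact mean was -1.22 in deleted replicate 1, 0.08 in replicate 2, -0.03 in replicate 3 and -0.29 in replicate 4.

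Markers of other cell types moved between the deleted libraries too. Beside the 5.10% of all genes called higher and 2.80% called lower, 4 of 8 astrocyte markers rose, and their summed CPM was 868 to 1723 in intact and 7733, 770, 2694 and 2131 in deleted replicates 1 to 4. Of 6 tested neuron markers 2 fell, and the 8 summed to 17.97 to 23.3 CPM with Kat7 intact and to 9.94, 116, 6.47 and 8.60 CPM with Kat7 deleted. The median log2 distance of the 6 tested ones from the intact mean was -1.38, -2.61, -1.70 and -1.95 in deleted replicates 1 to 4. In replicate 2 the sum was thus the highest and the median the lowest, so that sum does not describe most neuron markers. Of the 7 mesenchymal markers 1 was tested and rose, and they summed to 1.25 to 1.42 CPM in intact libraries and to 2.09, 610.04, 7.51 and 108 CPM in deleted replicates 1 to 4, so the libraries with the most of them, 2 and 4, included the one with the fewest mitochondrial transcripts among deleted libraries by mRNA share and the one with the most. Of 4 tested oligodendrocyte markers 1 fell, and the 7 summed to 754 to 1025 CPM with Kat7 intact and to 1011, 258, 987 and 557 CPM with Kat7 deleted. Of 2 tested endothelial markers 1 fell, and the 5 summed to 2.79 to 6.39 CPM with Kat7 intact and to 1.71, 15.7, 1.43 and 3.56 CPM with Kat7 deleted. Microglia and erythroid markers summed to at most 3.64 and 1.65 CPM in any library.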

How the data were processed

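The deposited values are raw read counts (whole numbers, not normalized by the authors) of 27179 Entrez identifiers in 8 libraries. The submitters' processing notes name CASAVA 1.8.2, featureCounts and mm10, and per the labels the reads were 100 bp single-end reads of polyA RNA. The aligner, the featureCounts version and the settings for strand and for reads with several matches are not given in the sources used here.

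Symbols came from a RefSeq table of GRCm38.p6 (25275 identifiers matched, 1904 did not). Positions and sequences of the mitochondrial genes came from GENCODE M21 (GRCm38). Every 100-base window of each mitochondrial gene was looked up in all annotated nuclear transcripts, without mismatches and with up to 2. Deposited lengths equalled annotated lengths for all 15 members.

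All genes were fitted together in edgeR 4.0.16 (R 4.3.3), with filterByExpr at a minimum count of 10, TMM scaling, robust dispersion and quasi-likelihood F tests between 4 deleted and 4 intact libraries. Benjamini-Hochberg adjustment ran over all 13498 genes tested, and genes were called at an adjusted p under 0.05. SEs restate that test (absolute log2 fold change over the root of F). Sums over members got no test. The test was checked on simulated counts of 13341 genes, 200 of them changed. Of the 2-fold changes 33.3% were recovered, of the 4-fold changes 81.6%, and 11 unchanged genes were called. The simulated libraries were independent, with the same dispersion in both genotypes. The real ones include littermates and spread more with Kat7 deleted, so these rates need not hold for them. Alternatives used DESeq2 1.42.0, limma-voom (limma 3.58.1), other scalings and filters, a random litter effect, littermates added together, replicate numbers as a block, and each library left out. Leaving out litter 1253 or 1429 was added after seeing the data. The members and lists were chosen with earlier results of these data known. Genes named were all members, Kat7 and, from each list, called members or else the most abundant one, of which a selection is given. Rpph1 and Malat1 were named outside this rule. Nothing in the labels says that cultures were prepared together, and littermates are not independent, so p-values measure the spread between these libraries.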

Additional observations from a re-analysis of the deposited data

Results flagged for a closer look

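Over 70 groups of 4 libraries examined, for the members and the named nuclear genes, 2 held a library whose gap to the others took up nearly the whole range of its group. Chance marks about 1 in 20 such groups. Sdha, the flavoprotein subunit of complex II, stood at 501.3 CPM in deleted replicate 1, against 290.01 to 307 CPM in the other deleted libraries. That library was also among the high ones for mitochondrial transcripts. Gabpa, a subunit of the nuclear respiratory factor NRF-2, stood at 103.7 CPM in intact replicate 1, against 102.03 to 102.3 CPM in the other intact libraries, a gap of little size.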

How the results depend on the processing

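The fitted log2 fold change of every tested member stayed above 0 in all 22 alternatives run, and of 306 values over 14 members 15 moved past the threshold. mt-Rnr2 ran from 0.20 to 0.60 and was never called. The count of members called was 7 with DESeq2 and 0 to 7 over the fits with 1 library left out: 7 without deleted replicate 2, with 9.14% of genes called higher, and 1 (mt-Nd4, adjusted p = 0.048) without deleted replicate 1. The 7 called without replicate 2 were the 7 called by DESeq2, namely mt-Nd1, mt-Nd2, mt-Nd4, mt-Nd5, mt-Nd6, mt-Cytb and mt-Atp6.

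Over all genes, 1066 were called. The count was 675 with library totals alone, 2200 with DESeq2, 414 with litter as a random block, 193 with littermates summed, 2298 without deleted replicates 1 and 3, 614 without litter 1429 and 0 without litter 1253, where 0 members called says nothing about them. It ran from 189 to 2182 with 1 library left out. With the replicate number as a block 319 genes and 0 members were called. The labels name nothing that same-numbered libraries share. Their deviations from the genotype mean correlated at 0.0961, 0.221, 0.11 and 0.331, over 0.1 in 3 of 4 pairs. Of the 12 other pairs 10 were below 0 and 2 were over 0.1. Deviations sum to 0 within a genotype, so pairs above 0 force others below 0, and those 10 add no separate support. The same-number values are at most a hint of pairing, short of the 0.1 asked of every pair. Not every library correlated best with its own number.

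Differences in the rRNA share ran from 0.909 to 6.31 points, in the mRNA share from 0.211 to 0.691 points and in the ratio from -10.4 to -5.17 with 1 library left out. Fitted values near 0 of 6 uncalled nuclear genes changed sign: with library totals alone Lrpprc (-0.11), Dhx30 (-0.087), Atp5b (-0.014) and Rn7sk (-0.093), without a filter Lrpprc (-0.0041), with littermates summed Gfm1 (0.0032), without litter 1429 Gfm1 (0.14) and Hspa9 (0.15), and without deleted replicates 1 and 3 Atp5b (-0.16). With 1 library left out they ran from -0.042 to 0.10 for Lrpprc, -0.0051 to 0.092 for Dhx30, -0.21 to 0.044 for Gfm1, -0.19 to 0.028 for Hspa9, -0.068 to 0.24 for Atp5b and -0.082 to 0.20 for Rn7sk. The cause was not tested. Depth limited mt-Atp8 and mt-Nd4l, at 2 to 32 reads a library.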
